A study of Rattus norvegicus with 8 samples.

Results

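Matrix metalloproteinases (MMPs) and their tissue inhibitors (TIMPs) were followed in RNA from vessels of hypertensive and control rats. The 10 genes were 6 MMPs (Mmp2, Mmp3, Mmp9, Mmp12, Mmp14 and Mmp19) and 4 TIMPs (Timp1, Timp2, Timp3 and Timp4). They were chosen by name, with earlier results of these data known. Every probe whose transcript record belongs to one of them was taken, which gave 13 of the 45598 probes on the array. Male rats of a hypertensive disease model (4 rats) were compared with male Wistar-Kyoto rats (4 rats), a normotensive laboratory strain, with 4 arrays in each group. The strain entry of the hypertensive animals also reads Wistar-Kyoto, so the strain of that group is not settled here. The age, the kind of vessel and any treatment are not given in the sources used here.

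MMPs are zinc-dependent proteases that cut collagens, elastin and other proteins of the extracellular matrix, and most are secreted as inactive proenzymes. TIMPs bind the active site of MMPs and block it. In the vessel wall the balance between the enzymes and their inhibitors takes part in the turnover of the matrix around smooth muscle cells and in remodelling under raised pressure. MMP activity is set after transcription as well, by activation of the proenzyme and by inhibition, and the arrays measured RNA alone.

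The promoters show a feature the choice of genes did not use. The sequence before the transcription start was found in the RefSeq table (GRCr8) for 6 of the 10 genes, and not for Mmp2, Mmp9, Mmp14 and Mmp19. The windows of both MMPs found are shown beside those of 2 inhibitors, because they differ in these letters. Each is the 150 bases upstream of the start on the gene's own strand, 5′ to 3′. Capitals mark TGAGTCA (the AP-1 element), TATAAA (the TATA box) or CCGCCC (the GC box GGGCGG read on the other strand). All were searched on both strands, and these matches do not overlap.
Mmp3: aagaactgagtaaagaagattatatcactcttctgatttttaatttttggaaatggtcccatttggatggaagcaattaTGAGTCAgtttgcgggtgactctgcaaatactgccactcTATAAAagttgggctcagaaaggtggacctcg
Mmp12: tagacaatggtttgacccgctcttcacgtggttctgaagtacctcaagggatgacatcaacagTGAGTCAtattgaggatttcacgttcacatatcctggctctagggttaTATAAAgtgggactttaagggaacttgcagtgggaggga
Timp1: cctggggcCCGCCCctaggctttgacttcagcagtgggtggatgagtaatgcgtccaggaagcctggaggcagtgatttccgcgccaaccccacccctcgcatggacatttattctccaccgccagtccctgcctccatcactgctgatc
Timp2: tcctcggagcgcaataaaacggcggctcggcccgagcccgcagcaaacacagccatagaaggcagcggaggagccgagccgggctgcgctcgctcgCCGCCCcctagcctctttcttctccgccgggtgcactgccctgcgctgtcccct

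The Mmp3 promoter (chr8:12925131-12925280, plus strand) held TGAGTCA at −71 to −65 and TATAAA at −32 to −27, counted from the start. The Mmp12 promoter (chr8:12866502-12866651, plus strand) held the same pair, at −87 to −81 and at −39 to −34. Among 33469 promoters of the same length, 2.38% held TGAGTCA, 8.0% held TATAAA and 0.23% held both. None of the 4 TIMP promoters held either. The Timp1 window (chrX:3771123-3771272, minus strand) had a GC box at −142, the Timp2 window (chr10:104089215-104089364, minus strand) had one at −54, Timp3 had 2 and Timp4 had none, against 26.02% of all promoters with at least 1. GC content was 39.3% in Mmp3 and 45.3% in Mmp12, against 60.7%, 69.3%, 72.0% and 52.0% in Timp1 to Timp4 and a median of 52.7% over all promoters. These matches describe the letters in each window and were not tested for binding.

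All levels are log2 signal relative to the array's own 75th percentile, so a difference of 1 is a doubling. Signals of different probes cannot be set against each other, so genes are compared through their differences between groups. All 10 smooth muscle and all 9 measured endothelial markers were well above background on every array. Hypertensive replicate 4 stood apart. It lay at −44.6 on the second principal component (17.0% of the variance), where the other 7 arrays lay between −12.0 and 24.9. Its summed white adipocyte markers were 81.1 times the 75th percentile, while hypertensive replicates 1 to 3 had sums of 15.9 to 22.9 and control arrays sums of 18.5 to 31.9. Of 8 tested skeletal muscle markers 1 rose (Myh1, 2.28 ± 0.50, adjusted p = 0.0397, a call lost without 7 of the 8 arrays in turn), with a median of 0.28. Their summed level was 1.97 to 2.84 in hypertensive and 2.03 to 2.15 in control vessels. Averaged over these genes, the deviation from each gene's mean was 0.44, −0.07, 0.39 and 0.35 in hypertensive vessels. In control vessels it was −0.39, −0.34, −0.14 and −0.25. Of 8 tested nerve and Schwann cell markers none passed, with summed levels of 6.85 to 9.11 in hypertensive and 4.73 to 6.69 in control vessels. In these sums brighter probes weigh more. The averaged deviation was 0.32, 0.03, 0.12 and 0.13 in hypertensive vessels, against −0.09, 0.05, −0.17 and −0.38 in control vessels, so the groups overlapped. The part of these cells in the MMP and TIMP values was not tested. In whole vessels, fewer cells of a type and less RNA per cell cannot be told apart. All 8 arrays lay on 1 slide with each group in a row of its own, so the row and the group cannot be told apart.

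None of the MMP and TIMP genes passed the test. A gene was tested if 3 or more of a group's 4 arrays had a probe of it well above background, which 7 of the 10 genes met (Mmp2, Mmp14, Mmp19 and the 4 TIMPs). Between the groups, 0 of these 7 reached an adjusted p under 0.05 (limma, Benjamini-Hochberg over 24552 tests), against 4.53% of all tests. Of all tests, 2.61% were higher and 1.91% lower in hypertensive vessels. At an unadjusted p under 0.05 the count was also 0 of 7, against 20.3% of all tests, and 0 of 7 had groups that did not overlap, against 13.6%. Of the 7 differences 3 were positive and 4 negative, with a median of −0.15, beside 0.041 over all tests. The median size was 0.15, the same as over all tests.

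**Figure D1:**
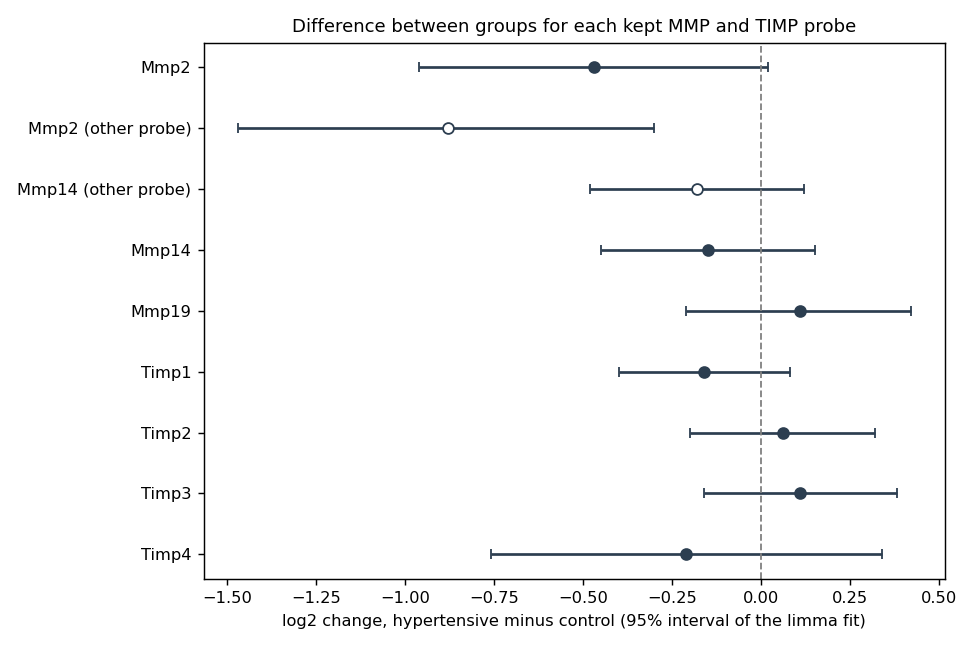
Difference between the groups for the 9 MMP and TIMP probes kept for testing, as log2 change (hypertensive minus control, horizontal axis). Points are estimates, bars the 95% intervals of the limma fit, and open points a gene's dimmer probe. Only the interval of the second Mmp2 probe, −1.47 to −0.30, leaves out 0.

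Mmp2, gelatinase A, which cuts denatured collagen and collagen type IV of basement membranes, had the largest difference among the 7 genes. Its brighter probe (A_44_P1087178, chromosome 19, 10 spots) read 6.10, 5.29, 5.21 and 5.77 in hypertensive vessels, against 6.17, 6.34, 6.05 and 5.69 in control vessels. Hypertensive replicates 2 and 3 were below all control vessels, while hypertensive replicates 1 and 4 lay among them. The means were 5.59 ± 0.42 and 6.06 ± 0.28 (hypertensive and control, SD, n = 4 each), a difference of −0.47 ± 0.22 (SE). That is a fold of 0.722 with a 95% interval of 0.512 to 1.017, an adjusted p of 0.269 and an exact permutation p of 0.1714 (two-sided). Of all tests, 11.5% had a difference at least this large.

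The second Mmp2 probe (A_64_P036955, 1 spot) read 2.93, 2.20, 1.94 and 2.88 in hypertensive vessels, against 3.52, 3.77, 3.25 and 2.93 in control vessels. To 2 decimals the highest hypertensive and the lowest control value were equal, and unrounded the groups did not overlap, as for 13.4% of all 27822 kept probes. The difference was −0.88 ± 0.26 (fold 0.542, 95% interval 0.36 to 0.815). Its adjusted p was 0.0995 in the fit with every kept probe as its own test, where 4.37% of probes passed, so this probe did not pass either. Its exact permutation p of 0.0286 is the smallest that 4 arrays against 4 allow.

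The probes of Mmp2 followed each other over the 8 arrays (r = 0.96) but differed in size. Relative to the control mean, the second probe minus the brighter one was −0.48, −0.40, −0.58 and −0.20 in hypertensive vessels, against 0.04, 0.12, −0.10 and −0.06 in control vessels. The groups did not overlap in this gap, which differed by −0.41 (exact permutation p = 0.0286, two-sided, chosen after the values were seen). Both probes name the same transcript record, and where on it each lies was not used here.

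**Figure D2:**
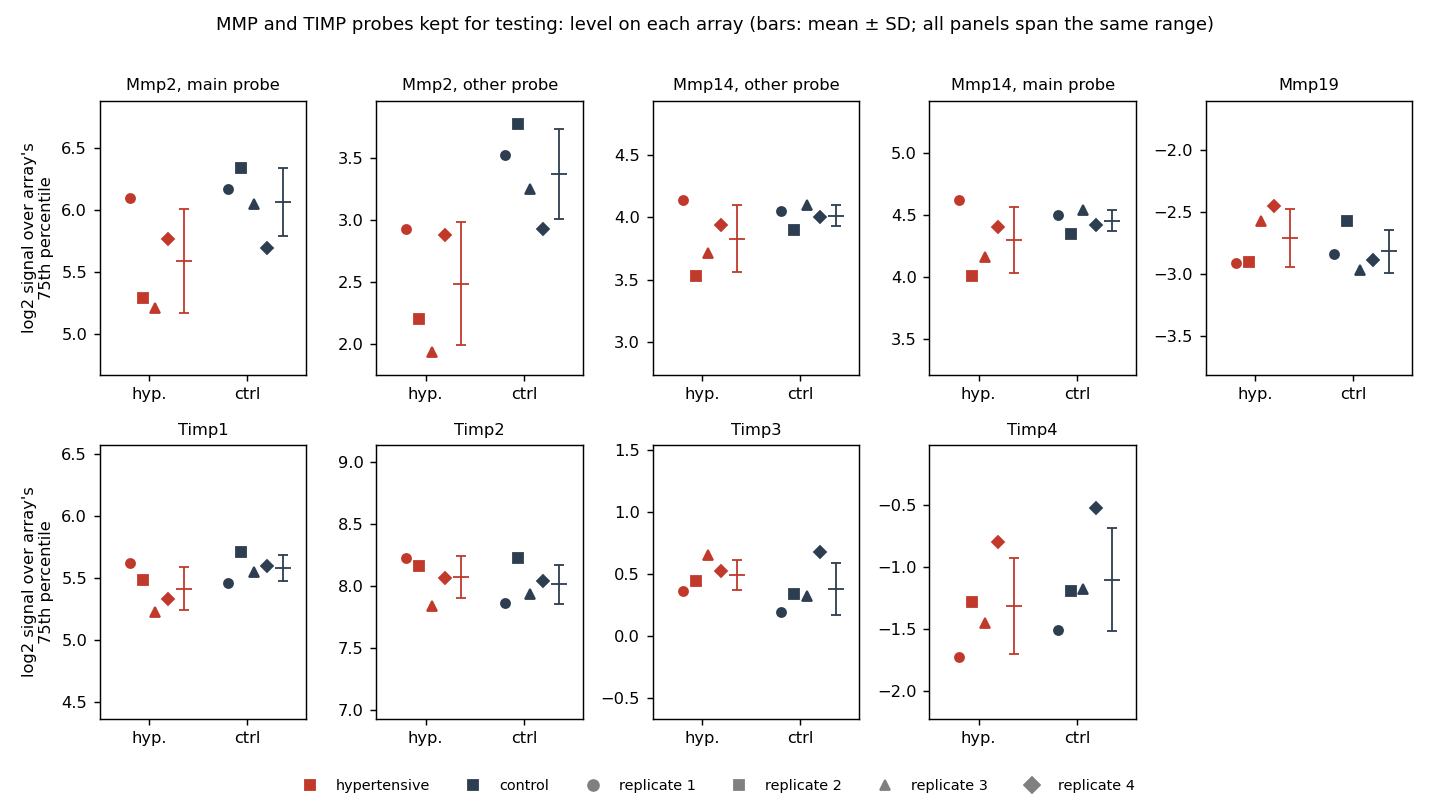
Level of each kept MMP and TIMP probe on each array (log2 signal over the array's 75th percentile, vertical axis), with hypertensive vessels left and control vessels right. Marker shapes give the replicate, bars the mean ± SD, and all panels span the same number of log2 units. The hypertensive Mmp2 values reach lower than the control ones in both probes, as do those of Mmp14, Timp1, Timp2 and Timp4. The groups overlap for every probe shown except the second Mmp2 probe.

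Mmp14, a membrane-bound MMP that activates pro-MMP2 at the cell surface, read 4.62, 4.01, 4.16 and 4.40 in hypertensive vessels, against 4.50, 4.35, 4.54 and 4.42 in control vessels (probe A_43_P14927, chromosome 15, 10 spots). Hypertensive replicates 2 and 3 were again the lowest, and the groups overlapped. The difference was −0.15 ± 0.13 (95% interval −0.45 to 0.15, adjusted p = 0.557). Its dimmer probe (A_42_P639027) gave −0.18 ± 0.13 (adjusted p = 0.493). Hypertensive vessels spread more than control vessels, with an SD of 0.27 against 0.08.

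Mmp19, a secreted MMP that cuts basement membrane proteins, read −2.91, −2.90, −2.57 and −2.45 in hypertensive vessels, against −2.84, −2.57, −2.97 and −2.89 in control vessels (probe A_44_P480817, chromosome 7). The groups overlapped, and the difference was 0.11 ± 0.14 (95% interval −0.21 to 0.42, adjusted p = 0.703). Without hypertensive replicate 4 it was 0.02.

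The other 3 MMPs were at or near background. Mmp12, the macrophage elastase (A_44_P555271, chromosome 8), was well above background on no array, with signals from −7.51 to −6.97 in hypertensive and from −7.67 to −7.11 in control vessels. The lowest signal that counted as well above background was −4.90 to −6.25, depending on the array. Mmp9, gelatinase B, a product of neutrophils and macrophages (A_44_P501112, chromosome 3), read −7.20, −7.15, −7.02 and −4.76 in hypertensive vessels, against −7.54, −7.01, −7.49 and −6.34 in control vessels. Only hypertensive replicate 4 was well above background, so no fold is given.

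Mmp3, a stromelysin that cuts matrix proteins and activates other pro-MMPs, read −5.37, −5.35, −5.21 and −4.41 in hypertensive vessels, against −6.25, −5.85, −6.14 and −5.13 in control vessels (A_43_P13197, chromosome 8, 2 spots). It was well above background on 1 of 4 hypertensive arrays (replicate 4) and 2 of 4 control arrays (replicates 1 and 4) and was not tested. Its other probe (A_44_P318318) was well above background on no array. Hypertensive replicate 4, highest for both Mmp3 and Mmp9, was also the array high in adipocyte markers. Of 11 neutrophil markers 3 were tested and 5 were well above background on no array (Csf3r, Elane, Ngp, Np4 and Mmp8). The summed level, in which brighter probes weigh more, was 9.89 to 14.2 in hypertensive and 11.2 to 12.9 in control vessels. Averaged over the 3 genes, the deviation from each gene's mean was −0.93, 0.01, −0.09 and 0.41 in hypertensive vessels. In control vessels it was 0.18, 0.23, 0.06 and 0.13. Neutrophil markers well above background numbered 3, 2, 4 and 5 on the hypertensive arrays and 3, 3, 3 and 4 on the control arrays. The part of either cell type in the Mmp9 signal was not tested.

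**Figure D3:**
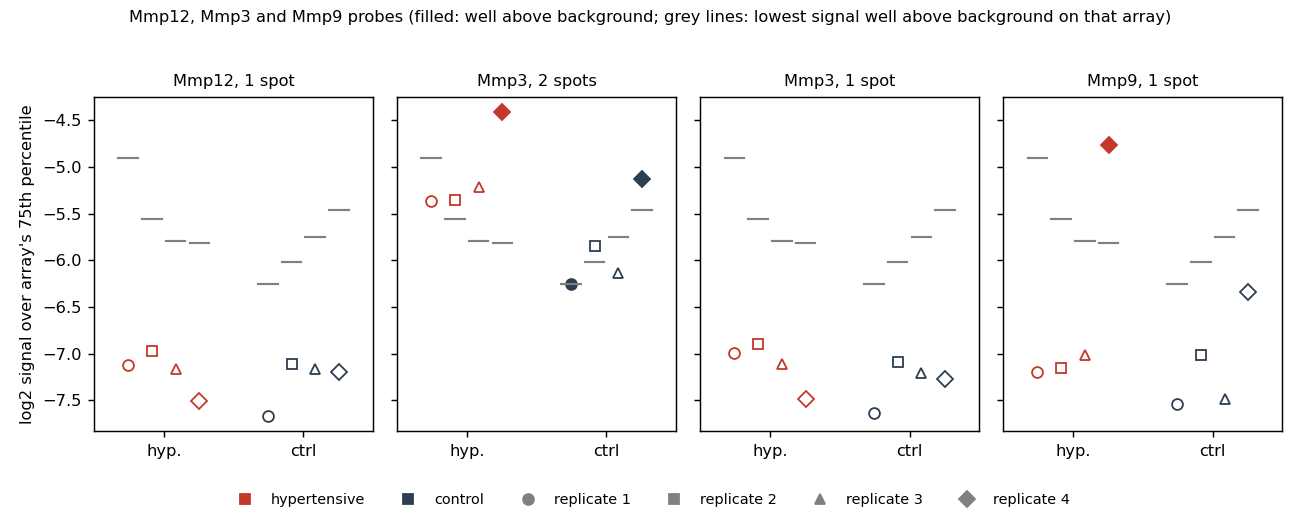
Signal of the Mmp12, Mmp3 and Mmp9 probes on each array (log2 over the array's 75th percentile), hypertensive left and control right. Filled markers are well above background and grey lines mark the lowest such signal on that array. Hypertensive replicate 4 is filled for Mmp3 (−4.41) and Mmp9 (−4.76), and the Mmp12 markers are all open.

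None of the 4 inhibitors passed the test. Timp1, a secreted inhibitor that many cells induce in inflammation (A_44_P461154, chromosome X, 10 spots), read 5.62, 5.49, 5.23 and 5.33 in hypertensive vessels, against 5.46, 5.71, 5.55 and 5.60 in control vessels. Hypertensive replicates 3 and 4 were below every control value, and the others lay among them. The difference was −0.16 ± 0.11 (95% interval −0.40 to 0.08, adjusted p = 0.427).

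Timp2, which blocks MMP2 and also takes part in its activation by MMP14 (A_44_P1017481, chromosome 10, 10 spots), read 8.22, 8.16, 7.84 and 8.06 in hypertensive vessels, against 7.86, 8.22, 7.93 and 8.04 in control vessels. The groups covered almost the same range. The difference was 0.06 ± 0.11 (95% interval −0.20 to 0.32, adjusted p = 0.812), and its sign turned under other scalings (−0.08 by quantile normalization and −0.03 by median centring).

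Timp3, which binds the matrix and also inhibits ADAM and ADAMTS proteases (A_43_P11604, chromosome 7), read 0.36, 0.44, 0.65 and 0.52 in hypertensive vessels, against 0.19, 0.34, 0.32 and 0.68 in control vessels. The highest value was control replicate 4, so the groups overlapped, with a difference of 0.11 ± 0.12 (95% interval −0.16 to 0.38, adjusted p = 0.643). Timp4, an inhibitor known from heart and vessels (A_44_P1056949, chromosome 4), read −1.72, −1.28, −1.45 and −0.80 in hypertensive vessels, against −1.51, −1.19, −1.18 and −0.52 in control vessels. Replicate 4 was the highest in each group. The difference was −0.21 ± 0.24 (95% interval −0.76 to 0.34, adjusted p = 0.663), and −0.38 without hypertensive replicate 4 or −0.02 without control replicate 4.

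Whether the ratio of Mmp2 to Timp2 within an array separated the groups depended on the Mmp2 probe used. With each gene's brighter probe, and relative to the mean of the control arrays, the log2 ratio of Mmp2 to Timp2 was −0.17, −0.92, −0.68 and −0.34 in hypertensive vessels, against 0.27, 0.07, 0.07 and −0.40 in control vessels. Control replicate 4 lay inside the hypertensive range. The difference in this ratio was −0.53, and it was −0.21 for Mmp14 to Timp2 and 0.01 for Mmp14 to Timp1, with overlapping groups in these 3 ratios. With the second Mmp2 probe, the ratio to Timp2 was −0.65, −1.32, −1.26 and −0.54 in hypertensive vessels, against 0.31, 0.19, −0.04 and −0.46 in control vessels. These groups did not overlap, and the difference was −0.94. This ratio was added after the values were seen and has no test.

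The genes whose levels ran most like Mmp2 over the 8 arrays, by Pearson r among named genes, were P3h1 (r = 0.995), Dpp7 (r = 0.979) and Mios (r = 0.972). P3h1 hydroxylates prolines in collagen, and Dpp7 is a lysosomal dipeptidase. These genes were picked for their likeness out of all named genes, so the r values are a description, and the arrays share their slide and scaling. None passed between groups, with differences of −0.12 ± 0.09, −0.52 ± 0.20 and −0.12 ± 0.08.

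**Figure D4:**
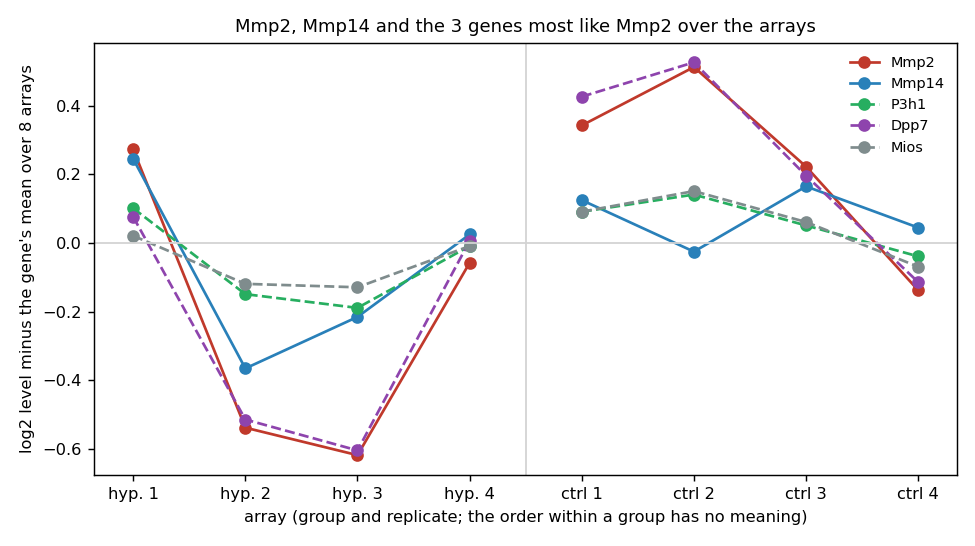
Levels of Mmp2, Mmp14 and the 3 genes most like Mmp2 on each array, as log2 minus the gene's mean over the 8 arrays (vertical axis), with hypertensive arrays left and control arrays right. Lines join a gene's values and give no order to the replicates. Mmp2 and Dpp7 dip together in hypertensive replicates 2 and 3.

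Some of the matrix genes that MMPs cut ran like Mmp2 over the arrays and others did not. Of 12 tested matrix genes 1 rose and 1 fell, with a median of −0.20. The r of Mmp2 with them after removing each group's mean ran from −0.60 to 0.96 with a median of 0.71, and was highest for Fbn1 (0.96), Col3a1 (0.94) and Col1a1 (0.92). It was 0.08 for Fn1, 0.13 for Lamc1 and −0.60 for Tnc. Col1a1, a chain of the main fibrillar collagen, read 8.75, 6.99, 6.81 and 7.23 in hypertensive vessels, against 8.81, 8.97, 8.11 and 7.69 in control vessels. As for Mmp2, hypertensive replicate 1 was among the control values, and the difference of −0.95 ± 0.45 did not pass (adjusted p = 0.277). Col1a2, the other chain of the same collagen, differed by only −0.03 ± 0.14 (adjusted p = 0.93), with an r of 0.70 with Mmp2. The 8 tested fibroblast and adventitia markers had a summed level of 656 to 1150 in hypertensive and 807 to 1240 in control vessels. Col1a1 and Col1a2 are in this list as well as among the matrix genes. On the same basis its median r with Mmp2 was 0.70, with a range of −0.15 to 0.92. The 10 smooth muscle markers had a median r of −0.64 (−0.84 to −0.35). For endothelial markers it was −0.38 (−0.67 to 0.55) and for white adipocyte markers 0.44 (−0.16 to 0.79). The part of these cells in the Mmp2 values was not tested.

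Tnc, the matrix glycoprotein tenascin C, rose. It read −3.53, −3.45, −2.60 and −3.03 in hypertensive vessels, against −4.62, −4.70, −4.44 and −4.36 in control vessels, with no overlap and a difference of 1.38 ± 0.20 (adjusted p = 0.00588). With normexp background correction the difference was 0.53, and the call held. Spp1, osteopontin, an MMP substrate and cytokine, fell. It read −4.69, −6.39, −5.58 and −5.27 in hypertensive vessels, against −2.28, −2.40, −2.74 and −3.00 in control vessels (−2.88 ± 0.33, adjusted p = 0.00176). It was well above background on all 4 control arrays but on 2 of 4 hypertensive arrays, so the size of its difference rests partly on signals near background. With normexp background correction it was −0.76 and the call held, and with detection required on all 8 arrays Spp1 was not tested.

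No other MMP passed the test in the main fit. Of 15 other MMPs with a probe, 8 were tested and 0 passed (1 without hypertensive replicate 2), with a median of 0.05. Mmp24 differed by 0.50 ± 0.17 (adjusted p = 0.137) and Mmp15 by 0.31 ± 0.17 (adjusted p = 0.35), both membrane-type MMPs. Mmp1, Mmp7, Mmp8, Mmp10, Mmp20 and Mmp21 were well above background on no array. Of 13 tested genes of MMP activation and the plasmin system, 0 passed (1 with normexp background correction and 1 with a replicate block), with a median of −0.05. Among them Cma1, the mast cell chymase, differed by 0.82 ± 0.24 (adjusted p = 0.0915). None of the 10 mast cell markers, Cma1 among them, passed, with a median of 0.71. Their summed level, in which brighter probes such as Cma1 weigh more, was 9.63 to 17.0 in hypertensive and 6.31 to 9.60 in control vessels. Averaged over these genes, the deviation from each gene's mean was −0.03, −0.01, 0.41 and 0.67 in hypertensive vessels. In control vessels it was −0.60, −0.02, −0.10 and −0.32, so the groups overlapped. The part of these cells was not tested. Serpine2, an inhibitor of plasminogen activators, differed by −0.62 ± 0.19 (adjusted p = 0.108).

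Of 13 tested genes of MMP inhibition, clearance and docking, 1 rose and none fell, with a median of −0.12. That was Cd44, a hyaluronan receptor that docks MMP9, with 2.51 ± 0.07 in hypertensive and 2.18 ± 0.08 in control vessels (SD, n = 4 each, difference 0.34 ± 0.08, adjusted p = 0.0496). The other kept Cd44 probes gave 0.17 ± 0.11 and −0.11 ± 0.10 (adjusted p = 0.447 and 0.564), the last in the opposite direction. The call was lost when any 1 of the 8 arrays was left out. It was also lost under quantile normalization, median centring, no detection filter, every probe as its own test and a replicate block. Of 12 tested ADAM and ADAMTS proteases, relatives that share TIMP inhibition, 1 fell, with a median of −0.13. Adamts1, which cuts versican and aggrecan, averaged 3.42 ± 0.21 in hypertensive and 4.60 ± 0.46 in control vessels (difference −1.18 ± 0.22, adjusted p = 0.0198), a call lost without control replicate 1 or without hypertensive replicate 2 or 3.

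Most calls of the lists lay among the listed regulators of MMP genes, but the lists were chosen with earlier results of these data known. Of 15 tested cytokines and growth factors, 5 fell and none rose, with a median of −0.25. Of all tests, 1.91% were lower and 2.61% higher in hypertensive vessels. Il1b, an inflammatory cytokine that induces several MMPs, read 0.64, 0.41, 0.19 and 0.65 in hypertensive vessels, against 2.06, 1.46, 2.39 and 1.95 in control vessels (−1.49 ± 0.20, adjusted p = 0.0038). The neutrophil chemokines Cxcl1 and Cxcl2 changed by −2.47 and −2.57 on the log2 scale (adjusted p = 0.00712 and 0.0219). Il10, counted in this list although it restrains inflammation, was lower (−2.31 ± 0.41, adjusted p = 0.0156). It was well above background on 2 of 4 hypertensive arrays, so that size too rests partly on signals near background. It was −0.83 with normexp background correction, where the call held, and its other kept probe gave −1.86 ± 0.37 (adjusted p = 0.0272). With detection required on all 8 arrays Il10 was not tested. The remaining gene was Ccl2, a monocyte chemokine, named here after its values were seen (−1.19 ± 0.24, adjusted p = 0.0301), whose call was lost without 6 of the 8 arrays in turn. The macrophage markers had a summed level of 172 to 240 in hypertensive and 152 to 193 in control vessels, a sum in which brighter probes weigh more, while the median change of the 13 genes was −0.22. Averaged over these genes, the deviation from each gene's mean was −0.06, −0.28, −0.22 and 0.18 in hypertensive vessels, against 0.04, 0.19, 0.12 and 0.02 in control vessels. Of 13 tested macrophage markers 1 fell, Mrc1 (−0.51 ± 0.12, adjusted p = 0.0496), a call lost without 7 of the 8 arrays in turn. Their part in the cytokine values was not tested.

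Of 15 tested AP-1, NF-kB and ETS factors, 4 fell and none rose, with a median of −0.25, beside 1.91% of all tests that were lower. All 4 belong to AP-1, the factor named for the TGAGTCA element. Of the other AP-1 genes in the list, Fosl2 and Jund were tested and did not pass. Fosl1 was well above background on no array. Fos read 3.19, 2.98, 2.32 and 2.61 in hypertensive vessels, against 4.89, 4.11, 5.23 and 4.13 in control vessels (−1.81 ± 0.29, adjusted p = 0.00945). Jun read 5.35, 5.60, 5.43 and 5.07 in hypertensive vessels, against 6.54, 6.35, 7.09 and 6.26 in control vessels (−1.19 ± 0.19, adjusted p = 0.00947), and its other kept probe gave −0.64 ± 0.18 (adjusted p = 0.0809). Fosb fell by 2.85 (adjusted p = 0.0194) and Junb fell by 1.06 (adjusted p = 0.0384), the Junb call being lost without 7 of the 8 arrays in turn. Mmp3 and Mmp12, whose promoters hold these letters, were at or near background in both groups and were not tested. The count of list genes that fell was 11 over all lists, but 5 without control replicate 1, 6 without hypertensive replicate 2 and 7 without hypertensive replicate 3. The calls of Fos, Jun, Il1b, Cxcl1, Spp1 and Tnc held with each of the 8 arrays left out in turn. Cxcl2 lost its call without control replicate 1 or hypertensive replicate 2 or 3, Fosb without control replicate 1 or 3 or hypertensive replicate 2, and Il10 without control replicate 1. A replicate block lost the calls of Cd44, Adamts1, Ccl2, Cxcl2, Fosb, Junb and Mrc1. With no detection filter those of Cd44, Ccl2, Junb, Mrc1 and Myh1 were lost. The Mrc1 call was also lost with normexp background correction and with every probe as its own test.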

How the data were processed

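RNA from vessels of 4 hypertensive and 4 control rats was measured on 1-colour Agilent arrays, 1 per sample. Per the labels' protocols, total RNA was labelled with Cy3. The deposited scanner files hold spot intensity values, background-subtracted by Agilent Feature Extraction 10.7.1.1 per the file headers (12.1.1.1 per the submitters' processing notes). The deposited value table holds a linear ratio equal to that intensity over a constant near the array's 75th percentile, with 0 probes above a value of 1 off by over 5%. Its column medians were 0.09 to 0.101 in hypertensive and 0.086 to 0.092 in control arrays. Its values are not centred on genes and it served as an alternative.

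Outlier spots (213 to 396 of 58717 per array) were dropped if their probe had any other spot, spots were averaged per probe as log2, and the array's 75th percentile was subtracted. No gene spot was saturated, and 58.7% to 64.1% of probes were well above background. The number of arrays limits the precision. Symbols came from RefSeq (GRCr8), which named 21229 of 45598 probes (46.6%). Probes passing background on 3 or more of a group's 4 arrays were kept, and each named gene was represented by its brightest one. The groups were compared with limma 3.58.1 in R 4.3.3, with Benjamini-Hochberg adjustment over 24552 tests and a threshold of 0.05. The fit was also run on simulated data in which each probe varied independently of the others. That run does not bear on the MMP and TIMP differences reported here. Each MMP and TIMP probe also had a two-sided exact permutation test. P-values set the difference between groups against the spread between these samples. That spread does not hold the effect of the slide row, which cannot be told apart from the group.

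The genes and lists were chosen with earlier results of these data known. Named genes are all 10 MMPs and TIMPs, from each list those past the threshold (at most 4 by adjusted p) or otherwise the 2 with the smallest p, and the 3 most like the member with the smallest p and that with the largest change (Mmp2 for both). Matrix genes set beside Mmp2 were named after their values were seen. The alternatives were normexp background correction (on median signals, since mean signals were not used here), quantile normalization, median centring, other detection filters, every probe as its own test, the value table, a replicate block and leaving out each array.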

Additional observations from a re-analysis of the deposited data

Results flagged for a closer look

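Among 26 groups of 4 arrays checked for a value far from the others (chance gives about 1 in 20), 3 had one, all in probes at or near background. Mmp3 in hypertensive replicate 4 was −4.41, above the other hypertensive values of −5.37 to −5.21. Mmp9 in the same array was −4.76, above −7.20 to −7.02. Mmp12 in control replicate 1 was −7.67, below −7.20 to −7.11, and was not well above background.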

How the results depend on the processing

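The count of MMP and TIMP genes past the threshold was 0 under every one of the 16 alternatives. Over them the log2 change ran from −0.64 to −0.34 for Mmp2 (adjusted p 0.116 to 0.482), −0.26 to −0.06 for Mmp14, 0.02 to 0.19 for Mmp19, −0.25 to −0.10 for Timp1, 0.02 to 0.21 for Timp3 and −0.38 to −0.02 for Timp4. Timp2 (0.06) changed sign under quantile normalization (−0.08) and median centring (−0.03), where the median of all tests was 0 and −0.04 rather than 0.04. That median was 0.12 with no detection filter. Over all tests, 1111 passed, against 1853 with normexp correction, 641 with no filter, 675 with the replicate block and 629 to 1473 with 1 array left out (629, 725 and 695 without control replicates 1, 2 and 3, and 688 without hypertensive replicate 2). Calls split into 641 higher and 470 lower, but 529 and 586 under quantile normalization and 422 and 652 under median centring. Of the list genes 2 rose, against 1 under quantile normalization, median centring, no filter and every probe as its own test, 3 with normexp correction and with detection on all 8 arrays, and 1 to 2 with 1 array left out. List genes that fell numbered 11, against 14 with normexp correction, 9 with detection on all 8 arrays, 6 with the replicate block and 5 to 10 with 1 array left out. The cause of these changes was not tested. The deviations of same-numbered arrays had r of 0.21, 0.12, −0.00 and −0.15, within the range of differently numbered arrays (−0.22 to 0.24). The main fit did not pair the rats by number, and whether the numbers pair them was not tested. With 4 arrays a group, the Mmp2 interval still holds folds from 0.512 to 1.017, and Mmp3, Mmp9 and Mmp12 are limited by signal near background.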
